A study of Homo sapiens with 12 samples.

Results

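The pregnancy-specific glycoproteins (PSGs) are described here across 3 drug treatments of MDA-MB-231 cells, a human line established from a triple-negative breast cancer and of mesenchymal type. They were taken by gene symbol as PSG1 to PSG9 and PSG11, 10 genes of 27146 with a row in any of the authors' 3 comparison tables. RNA was sequenced after 48 h with SAHA, compound 1 or a6, each at 2.5 µM, or with the solvent DMSO (Ctrl), in 3 libraries per group and 12 in all. SAHA (vorinostat) blocks histone deacetylases (HDACs), which take acetyl groups off histones. The series' design text calls SAHA and compound 1 single-targeting and a6 dual-targeting, its title naming HDACs and G-quadruplexes (G4s), which are folded structures of guanine-rich nucleic acid. All groups are 1 cell line and carry no engineered allele. The labels name biological replicates and do not say whether these were separate cultures, so errors and p-values cover only the spread between these libraries, which may be technical. The family was selected on its deposited log2 fold changes with SAHA, with the a6 and compound 1 values also known, so those values are a description and not an independent test of the family. Log2 fold changes are given throughout as value ± standard error.

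PSGs are secreted glycoproteins of the immunoglobulin superfamily, and with the CEACAM adhesion molecules they form the carcinoembryonic antigen family. The syncytiotrophoblast of the human placenta makes them in large amounts and releases them into maternal blood, where they were first recognised as markers of pregnancy. Several of them act on monocytes and other cells, and PSG1 and PSG9 are known to activate the latent form of the growth factor TGF-β1. Breast epithelium is not a usual source of them.

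All 10 genes lie on the minus strand in one block of chromosome 19, at 42721638 to 43269530 on GRCh38 in GENCODE 29, a span of 548 kb. From the lower coordinate upwards the order is PSG3, PSG8, PSG1, PSG6, PSG7, PSG11, PSG2, PSG5, PSG4 and PSG9, and the annotation gives each as protein-coding. The RefSeq promoter table (GRCh38.p14) held 3 of the 10, PSG3, PSG4 and PSG5. Their 250 bases upstream of the start annotated by RefSeq are shown, and the 3 sequences are nearly the same. All 3 are written 5′ to 3′ on the minus strand. They come from chr19:42740482-42740731 for PSG3, chr19:43205639-43205888 for PSG4 and chr19:43186537-43186786 for PSG5. In GENCODE 29 the PSG3 gene reaches up to 42740569, the PSG4 gene to 43207299 and the PSG5 gene to 43186536. The PSG3 window thus overlaps its GENCODE gene and the PSG4 window lies inside its own, while the PSG5 window lies just upstream.
PSG3: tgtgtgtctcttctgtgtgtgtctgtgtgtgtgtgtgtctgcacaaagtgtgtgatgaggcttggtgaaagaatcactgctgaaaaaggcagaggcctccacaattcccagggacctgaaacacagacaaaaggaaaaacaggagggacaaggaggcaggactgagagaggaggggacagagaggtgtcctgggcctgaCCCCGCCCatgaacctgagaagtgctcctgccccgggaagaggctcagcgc
PSG4: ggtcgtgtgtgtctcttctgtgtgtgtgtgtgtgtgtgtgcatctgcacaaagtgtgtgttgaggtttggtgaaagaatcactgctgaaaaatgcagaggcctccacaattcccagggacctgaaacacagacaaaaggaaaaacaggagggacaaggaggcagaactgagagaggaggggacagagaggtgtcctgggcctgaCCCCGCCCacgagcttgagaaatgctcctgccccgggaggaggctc
PSG5: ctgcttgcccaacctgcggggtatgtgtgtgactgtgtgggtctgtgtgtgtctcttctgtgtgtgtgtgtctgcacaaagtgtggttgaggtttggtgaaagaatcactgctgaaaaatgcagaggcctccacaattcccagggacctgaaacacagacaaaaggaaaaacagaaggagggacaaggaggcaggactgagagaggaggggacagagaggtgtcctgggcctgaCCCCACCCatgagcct
The capitals mark CCCCGCCC in PSG3 and PSG4 and CCCCACCC in PSG5, GC-rich boxes of the kind that Sp and KLF transcription factors bind. Both motifs were searched on both strands, as was TATAAA; none of these motifs overlapped another. The box starts 51 bases before the RefSeq start in PSG3, 46 in PSG4 and 16 in PSG5. It stands in the same surrounding sequence in all 3. Pairwise alignment gave 95.1% identical bases between PSG3 and PSG4, 96.3% between PSG3 and PSG5 and 95.0% between PSG4 and PSG5, over 245, 214 and 219 aligned bases. Of all 35097 promoters in the table, 21.8% held CCCCGCCC in the same window, 10.4% held CCCCACCC and 10.7% held the TATA motif, which was in 0 of the 3 PSG windows.

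The tables give 1 mean normalized read count per gene over the libraries compared and no value per library, so depth and the values of single libraries are unknown here, and the mean of each group was worked out from the deposited mean and fold. Of 14 markers listed to check the cell line, 13 had a row in a table. Ctrl mean normalized counts of the mesenchymal markers were 21149 for VIM, 8262 for CD44, 2802 for FN1, 188 for SNAI2 and 157 for ZEB1. Of the epithelial ones CDH1 was at 5.04, EPCAM at 172, KRT18 at 8497 and KRT8 at 17305, so epithelial keratin RNA was present too. The receptor genes ESR1 and PGR were at 0.660 and 0.337 and the basal keratin gene KRT5 at 0.281 in the compound 1 table, the only one with these 3, while ERBB2 was at 2103. The Ctrl level of each PSG came out nearly the same from each table, with a ratio of highest to lowest between 1.02 and 1.03.

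In Ctrl cells the PSGs stood at unequal levels. Per kilobase of annotated exon, PSG4 was highest, at a mean normalized count of 28.5 per kb, followed by PSG5 at 15.1, PSG1 at 12.2, PSG9 at 7.01 and PSG8 at 5.66 per kb. PSG6, PSG3, PSG7 and PSG2 lay between 1.98 and 1.12 per kb and PSG11 at 0.346 per kb. With SAHA PSG4 was again highest at 123 per kb, then PSG5 at 108, PSG1 at 87.2 and PSG9 at 85.6 per kb. PSG7, PSG3, PSG2, PSG8 and PSG6 followed between 32.0 and 15.4 per kb, and PSG11 stood at 5.65 per kb. The spread of a level over libraries is not in the tables, so neighbours in these orders were not tested against each other.

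**Figure D1:**
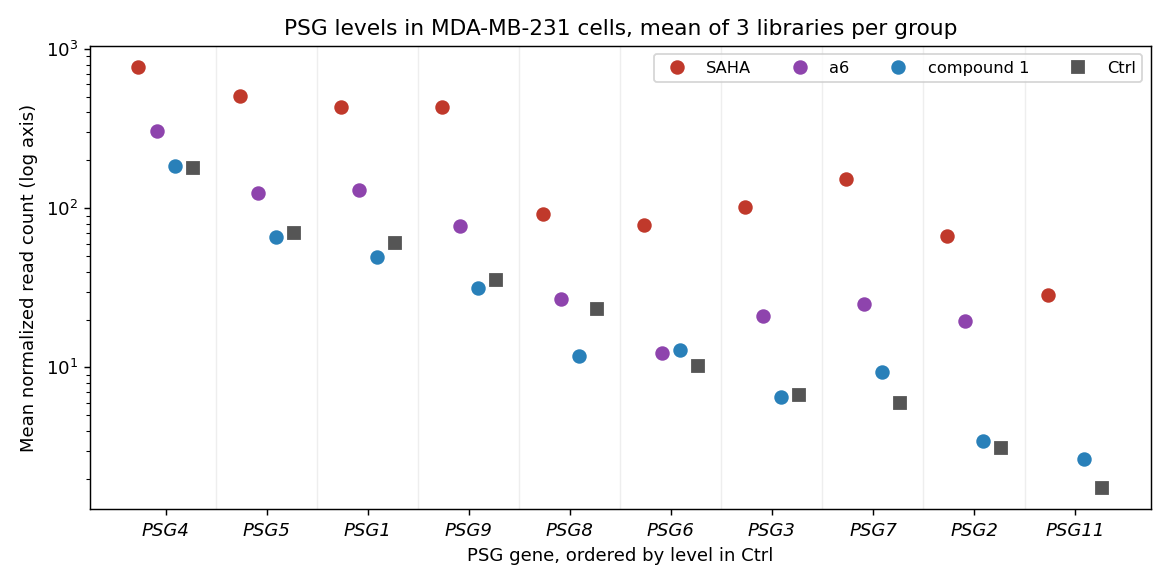
Mean normalized read count (log axis) of each PSG with SAHA, a6 and compound 1 and in Ctrl, computed from the authors' tables; each point is a group mean and PSG11 has no a6 value. The SAHA point is highest for every gene, from 28.4 for PSG11 to 772 for PSG4.

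With SAHA all 10 PSGs rose at an adjusted p under 0.05 (the authors' DESeq2 Wald test), where 4.53% of all 18534 genes in that table did so. Nothing is read from that count, since SAHA values were among those that chose the genes. The log2 fold changes ran from 2.00 to 4.68 with a median of 3.28, against a median of -0.01 over all genes. The summed level of the 10 genes was 2667 with SAHA and 396 in Ctrl, a ratio of 6.74. By adjusted p PSG5 stood at rank 7 in the table and PSG11, the last of the 10, at rank 348.

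The genes already highest in Ctrl supplied most of the added RNA. PSG4, at chromosome 19, 43192702 to 43207299, had a mean normalized count of 772 with SAHA and 179 in Ctrl, and a log2 fold change of 2.11 ± 0.27 in the authors' deposited table. PSG5, at 43166256 to 43186536, had 507 with SAHA and 70.4 in Ctrl, a log2 fold change of 2.85 ± 0.30 in the authors' deposited table. PSG1, the member best studied for its action on TGF-β1, lies at 42866464 to 42879822. It had 433 with SAHA and 60.3 in Ctrl, a log2 fold change of 2.84 ± 0.33 in the authors' deposited table. PSG9, at 43211791 to 43269530, had 432 with SAHA and 35.4 in Ctrl, a log2 fold change of 3.61 ± 0.38 in the authors' deposited table. PSG4 made up 26.1% of the rise in the summed level, PSG5 19.2%, PSG9 17.5% and PSG1 16.4%. PSG9 was the one of these 4 whose share of the sum grew most, to 16.2% with SAHA against 8.94% in Ctrl. The share of PSG4 was 29.0% with SAHA and 45.1% in Ctrl. In bulk RNA, more cells that express a gene and more of its RNA per cell cannot be told apart.

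The largest fold changes were in genes that were close to absent without the drug. PSG7, at 42924132 to 42937178, had a mean normalized count of 153 with SAHA and 5.98 in Ctrl, a log2 fold change of 4.68 ± 0.50 in the authors' deposited table. PSG2, at 43064211 to 43083045, had 66.7 with SAHA and 3.13 in Ctrl, a log2 fold change of 4.41 ± 0.66 in the authors' deposited table. PSG11, known like PSG1 and PSG6 to make monocytes secrete cytokines, lies at 43007656 to 43026512. It had 28.4 with SAHA and 1.74 in Ctrl, and its log2 fold change of 4.03 in the authors' deposited table carried the largest standard error of the family, 0.90. The lowest mean count in the SAHA table is 2.44, so PSG11 alone of the 10 had a Ctrl level under that limit. PSG3, at 42721638 to 42740569, had 103 with SAHA and 6.75 in Ctrl, a log2 fold change of 3.92 ± 0.51 in the authors' deposited table.

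PSG6 and PSG8 were low in Ctrl but changed less. PSG6, at 42902079 to 42919563, had a mean normalized count of 78.9 with SAHA and 10.2 in Ctrl, a log2 fold change of 2.96 ± 0.49 in the authors' deposited table. PSG8, at 42752686 to 42855691, had 92.4 with SAHA and 23.1 in Ctrl, the smallest log2 fold change of the family at 2.00 ± 0.44 in the authors' deposited table. Across the 10 genes the SAHA log2 fold change went with a low Ctrl level, with a Pearson r of -0.77 and a Spearman rho of -0.79 on the log2 level. This is a description, because the Ctrl level enters both measures and all genes share the same libraries. Position along the block showed no such relation, with a rho of 0.08 over the same 10 genes.

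**Figure D2:**
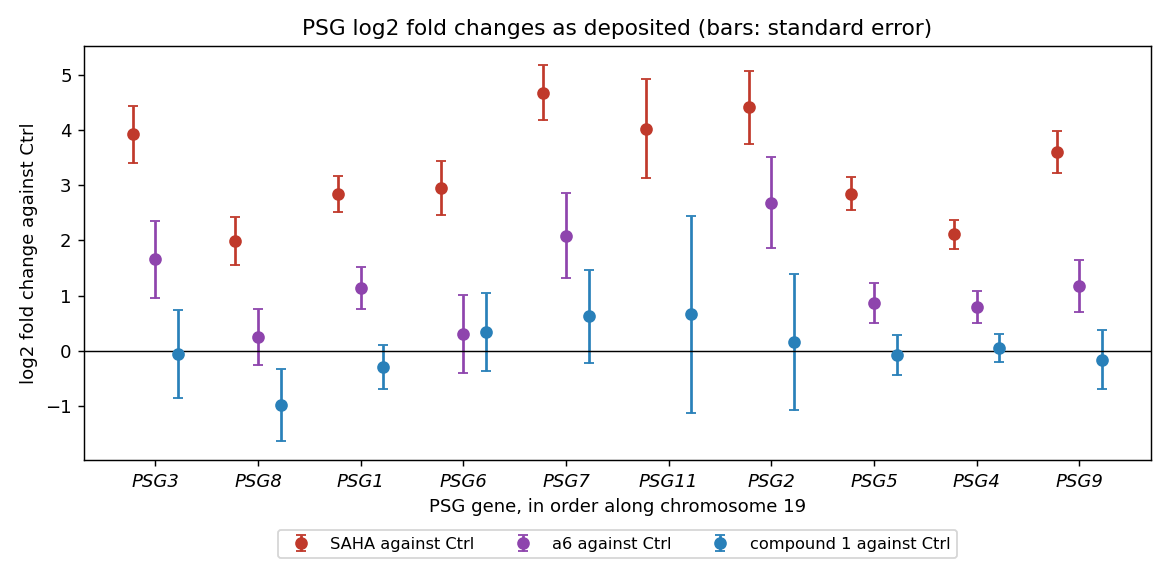
Log2 fold change of each PSG against Ctrl for SAHA, a6 and compound 1, in order along chromosome 19, with the standard error as bars. The SAHA values lie between 2.00 and 4.68, the a6 values between 0.25 and 2.69 and the compound 1 values between -0.98 and 0.66.

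With a6, at the same dose and time, the measured PSGs lay above Ctrl by smaller amounts and none passed the adjusted threshold. The a6 table held 9 of the 10; PSG11 has no row in it. In the authors' DESeq2 test 0 of the 9 had an adjusted p under 0.05, where 0.243% of all 15255 genes were called higher. At an unadjusted p under 0.05, 7 were higher, where 3.06% of all genes were. With a 2-fold limit added, as in the authors' own list of raised genes, 5 were higher, where 0.983% of all genes were. The lowest mean count in the a6 table is 9.31, and the Ctrl levels of PSG2, PSG3 and PSG7 are under it. These 3 could enter the table only through a higher a6 level, and they are among both the 7 and the 5. The direction of the 9 together and both of these counts thus cannot be counted as support.

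The 6 genes that could enter at their Ctrl level were PSG4, PSG5, PSG1, PSG9, PSG8 and PSG6. PSG4 had a mean normalized count of 305 with a6 and 175 in Ctrl, a log2 fold change of 0.80 ± 0.29 in the authors' deposited table. PSG1 had 130 with a6 and 59.0 in Ctrl, a log2 fold change of 1.14 ± 0.38 in the authors' deposited table. PSG5 had 126 with a6 and 68.9 in Ctrl, a log2 fold change of 0.86 ± 0.36 in the authors' deposited table. These 3 and PSG9, at 1.17 ± 0.47 in the authors' deposited table, were among the 7. PSG8 had 26.9 with a6 and 22.7 in Ctrl, and PSG6 had 12.2 with a6 and 9.93 in Ctrl. Their log2 fold changes of 0.25 ± 0.51 and 0.30 ± 0.71 in the authors' deposited table were smaller than their standard errors.

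The 3 that entered through their a6 level had the largest values. PSG2 had a mean normalized count of 19.6 with a6 and 3.05 in Ctrl, a log2 fold change of 2.69 ± 0.82 in the authors' deposited table. PSG7 had 25.0 with a6 and 5.89 in Ctrl, at 2.09 ± 0.77 in the authors' deposited table, and PSG3 had 21.0 with a6 and 6.67 in Ctrl, at 1.66 ± 0.69. The summed level of the 9 genes was 743 with a6 and 386 in Ctrl, a ratio of 1.93.

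With compound 1 the PSGs lay on both sides of Ctrl. All 10 were in that table, which reaches down to a mean count of 0.145, and 5 were above 0 and 5 below, with a median log2 fold change of -0.01. In the authors' DESeq2 test 0 of the 10 had an adjusted p under 0.05, where 0% of all 27126 genes were called, and 0 had an unadjusted p under 0.05, where 0.199% of all genes did. The summed level was 378 with compound 1 and 395 in Ctrl, a ratio of 0.956. PSG4, the best measured, had a mean normalized count of 184 with compound 1 and 179 in Ctrl, and its log2 fold change of 0.04 had a 95% interval of -0.45 to 0.54. For PSG5 the log2 fold change was -0.08 with an interval of -0.79 to 0.62, and for PSG1 it was -0.29 with an interval of -1.08 to 0.50. PSG8 had the lowest log2 fold change, at 11.8 with compound 1 and 23.2 in Ctrl, a value of -0.98 with an interval of -2.26 to 0.30. For the low members the data said little. The interval of PSG11, at 2.67 with compound 1 and 1.69 in Ctrl, ran from -2.84 to 4.16 and so included the value of 4.03 found with SAHA.

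The compounds were set against each other as differences of log2 fold changes, with an error that is too large because the Ctrl libraries are shared. SAHA was above a6 for all 9 genes measured with both, by 1.31 to 2.66 on the log2 scale with a median of 1.98. The difference was 1.98 ± 0.47 for PSG5, 2.44 ± 0.61 for PSG9 and 1.31 ± 0.39 for PSG4. The 95% interval of the difference excluded 0 for 8 of the 9, and for PSG2 it ran from -0.34 to 3.80. Of the 9, PSG5 and PSG9 had an adjusted p under 0.05 in a two-sided z test over all genes, where 0.197% of 15255 genes were called higher. With an error correlation of 0.5 for the shared Ctrl libraries 8 of the 9 were called, where 1.98% of the same genes were called higher. SAHA was above compound 1 for all 10 genes, by 2.07 to 4.25, and 7 were called by the same test, where 0.583% of 18514 genes were called higher. The interval of that difference excluded 0 for 9 of the 10, the exception being PSG11. The share of all genes whose interval excluded 0 was not worked out for either difference. These differences rest on the SAHA values that chose the family and are given as a description.

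a6 and compound 1 were not told apart for most of the family. Their difference was above 0 for 8 of 9 genes. PSG2, PSG3 and PSG7 had an a6 value only through a higher a6 level, so this count cannot be counted as support. The share of all genes above 0 was not worked out. By the same z test 0 of the 9 had an adjusted p under 0.05, where 0.00656% of 15251 genes were called higher. At an unadjusted p under 0.05 there were 2. The share of all genes at that limit was not worked out, so nothing is read from this count. The difference was 1.43 ± 0.56 for PSG1 and 0.76 ± 0.38 for PSG4, the 2 genes whose 95% interval lay above 0. For PSG5 it was 0.95 with an interval of -0.06 to 1.95, and for PSG6 it was -0.04 with an interval of -2.01 to 1.93. No compound differed from another in dose or time, and structures are not compared here.

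PSG messages resemble each other, and how reads were divided among them is uncertain. In the longest protein-coding transcript of each gene, between 6.07% for PSG6 and 38.8% for PSG8 of all 50-base windows stood, letter for letter, in a transcript of another gene. With 100-base windows the range was 0% for PSG6 to 15.0% for PSG8, and with 150-base windows 0% for PSG6 and PSG4 to 4.14% for PSG8. The closest pairs at 100 bases were PSG2 with PSG11, sharing 8.90% of the PSG2 windows, and PSG8 with PSG1, sharing 7.92% of the PSG8 windows. PSG6, with 0% shared at 100 bases, had a SAHA log2 fold change of 2.96. PSG4, with 4.20% shared at 100 bases and 23.3% at 50, had one of 2.11. The sources used here give neither the read length nor the treatment of reads that map to several genes. Across the 10 genes the shared percentage at 100 bases and the SAHA log2 fold change had a rho of -0.24. Whether reads from shared sequence bear on these values was not tested.

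**Figure D3:**
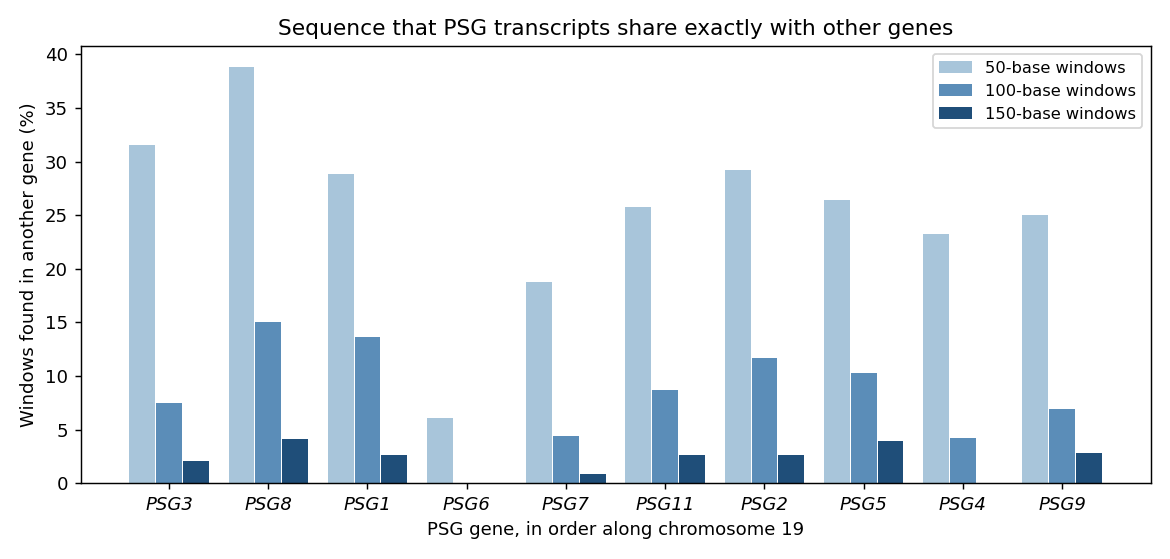
Percentage of 50-, 100- and 150-base windows of each PSG transcript that occur exactly in a transcript of another gene. PSG6 shares least and PSG8 most at each window size, although PSG4 is also at 0% with 150-base windows.

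Other rows inside the block were scarce. The pseudogene PSG10P, annotated within the bounds of PSG8, had a mean normalized count of 8.80 with SAHA and 0.376 in Ctrl and lay just outside the threshold, with 0.0512 as its DESeq2 adjusted p in the authors' deposited table. Among its 50-base windows 24.9% also occur in PSG transcripts. The antisense gene AC004784.1 crosses PSG11, PSG2 and PSG5 on the opposite strand and overlaps PSG exons over 517 bases. It had 46.8 with SAHA and 8.53 in Ctrl, a log2 fold change of 2.46 ± 0.59 in the authors' deposited table, where its DESeq2 adjusted p was 0.00121. Of the 50-base windows of AC004784.1, 22.4% occur in PSG transcripts on the opposite strand. Whether reads were counted by strand is not given, so reads from that shared part cannot be assigned to AC004784.1 or to the PSGs. The antisense gene PSG8-AS1 had a row with compound 1 alone, at 0.587 with compound 1 and 0.364 in Ctrl.

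Among the genes around the block the calls at an adjusted p under 0.05 stood near the share over all genes. Within 1 Mb on either side 102 annotated genes lay outside the block, of which 62 were measured with SAHA. Of these 3 rose and 3 fell, against 4.53% higher and 3.02% lower over all genes, and the median log2 fold change of the 62 was -0.08. At an unadjusted p under 0.05 there were 15 of the 62 with SAHA, where 18.4% of all genes were under it. Of the 3 that rose 2, AC005392.2 and LYPD5, had Ctrl levels of 0.695 and 1.07, under the lowest mean count of the table, and could enter it only through their SAHA level. The nearest measured protein-coding gene below the block was CEACAM1, an adhesion receptor of the same family, 160 kb away. It had a mean normalized count of 21.6 with SAHA and 4.25 in Ctrl, at 2.35 ± 0.81 in the authors' deposited table, where its DESeq2 adjusted p was 0.0510. The nearest above was CD177, a neutrophil surface protein gene 84.1 kb away, at 31.9 with SAHA and 33.2 in Ctrl and a log2 fold change of -0.06 ± 0.51 in the authors' deposited table. Between PSG9 and CD177 the noncoding gene AC005392.2, on the same strand as the PSGs and 59.8 kb from the block, had 27.6 with SAHA and 0.695 in Ctrl. Its log2 fold change was 5.31 ± 1.20 in the authors' deposited table, where its DESeq2 adjusted p was 0.000493, and 0% of its 50-base windows occur in PSG transcripts. The other outside genes that rose were LYPD5 at 4.33 and TMEM145 at 2.76 in the authors' deposited table. Those that fell were ZNF428 at -1.57, SRRM5 at -1.39 and AC010247.2 at -3.06 in the authors' deposited table. With a6, 0 of 52 such genes passed the DESeq2 test and 5 had an unadjusted p under 0.05, where 7.41% of all genes did. With compound 1 both counts were 0 of 75.

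**Figure D4:**
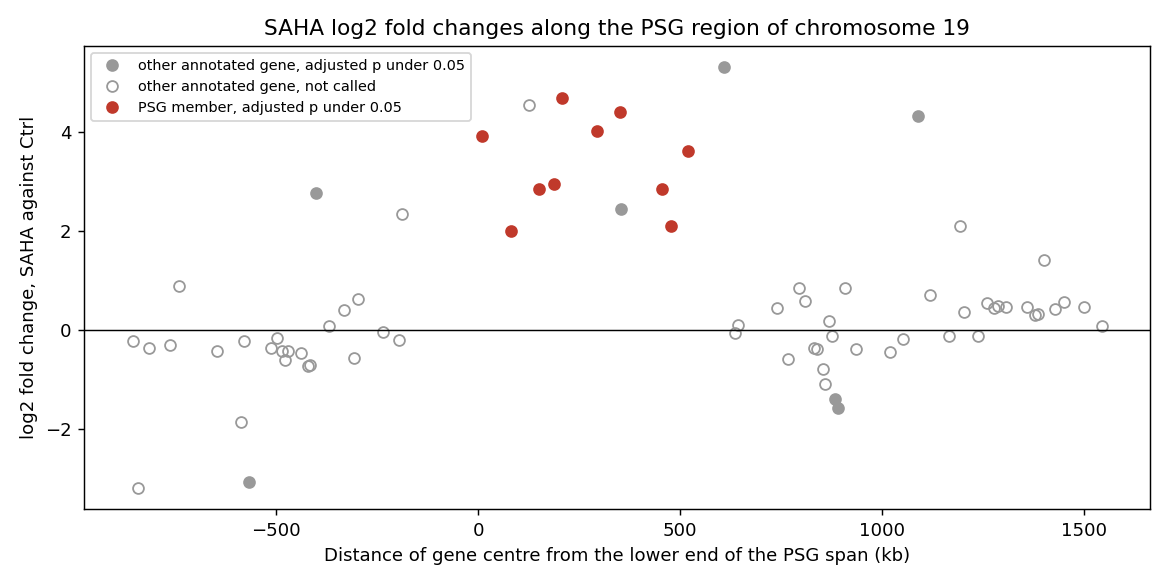
SAHA log2 fold change of every measured gene in and around the PSG block, against the distance of the gene's centre from the lower end of the block. The PSGs stand between 2.00 and 4.68, and of the 62 measured genes outside the block 3 rose and 3 fell.

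Of the 12 other CEACAM family genes listed, 2 were measured with SAHA and 0 passed the DESeq2 test, while 1, CEACAM1, had an unadjusted p under 0.05, where 18.4% of all genes did. CEACAM19 had a mean normalized count of 121 with SAHA and 96.0 in Ctrl, and CEACAM1 is given above. With a6, 1 was measured, and with compound 1, 2 were measured; 0 passed with either, also at an unadjusted p under 0.05.

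Among 58 genes known from trophoblast, the cell layer of the placenta that makes PSGs, 26 were measured with SAHA, of which 8 rose and 1 fell, where 4.53% of all genes were called higher and 3.02% lower. At an unadjusted p under 0.05 there were 12 of the 26, where 18.4% of all genes were under it. The median log2 fold change of the 26 was 0.78 and 16 lay above 0, against a median of -0.01 over all genes. A gene near 0 in Ctrl could enter the SAHA table only through a higher SAHA level, as holds for 1 of the 8, DLX3, at 16.0 with SAHA and 1.10 in Ctrl, so neither these counts nor the median is support. TFPI2, a protease inhibitor abundant in placenta, had 5131 with SAHA and 951 in Ctrl, a log2 fold change of 2.43 ± 0.26 in the authors' deposited table, where its DESeq2 adjusted p was 1.17e-17. INHBA, the activin A subunit, had 346 with SAHA and 105 in Ctrl, at 1.72 ± 0.31 in the authors' deposited table. PLAC1, a placental membrane protein gene, and SERPINB2, a plasminogen activator inhibitor, rose by 3.75 and 3.70, and ALPP, placental alkaline phosphatase, by 1.76 in the authors' deposited table. DLX3, ADAM12 and KISS1 completed the 8, at 3.87, 1.32 and 1.05 in the authors' deposited table. TFAP2A, a transcription factor of trophoblast and other epithelia, fell by 1.35 ± 0.35 in the authors' deposited table, where its DESeq2 adjusted p was 0.00343.

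The placental hormone and fusion genes of the list were absent, low or not called. Of the 58 genes 20 had no row in any of the 3 tables, among them CGA, the α subunit of chorionic gonadotropin, CSH1, CSH2 and CYP19A1. CGB3, ERVW-1, ERVFRD-1, GCM1, HSD3B1 and HLA-G were in the compound 1 table alone, with Ctrl levels between 0.117 for GCM1 and 0.984 for HSD3B1. The chorionic gonadotropin gene CGB5 had 7.69 with SAHA and 2.93 in Ctrl, and its log2 fold change of 1.39 ± 1.14 in the authors' deposited table was not called. Of the related subunit genes LHB had 12.8 with SAHA and 3.39 in Ctrl, at 1.92 ± 0.90, CGB8 had 8.34 with SAHA and 2.77 in Ctrl, at 1.59 ± 1.02, and CGB7 had 6.04 with SAHA and 6.78 in Ctrl, at -0.17 ± 1.01 in the authors' deposited table. None of these 3 was called, and LHB alone had an unadjusted p under 0.05. The steroid enzyme genes HSD17B1, at 267 with SAHA and 284 in Ctrl, and CYP11A1, at 42.7 with SAHA and 28.7 in Ctrl, were present without the drug and were not called. The trophoblast factors GATA3 and TFAP2C, at -0.26 ± 0.38 and 0.56 ± 0.37 in the authors' deposited table, did not pass either. With a6, 17 of the list were measured, 1 rose and 0 fell, where 0.243% of all genes were called higher and 0.341% lower. This was TFPI2, at 1700 with a6 and 930 in Ctrl and a log2 fold change of 0.87 ± 0.23 in the authors' deposited table, where its DESeq2 adjusted p was 0.0358. At an unadjusted p under 0.05 there were 4 of the 17 with a6, where 7.41% of all genes were under it. Beside TFPI2 they were KISS1 at 0.87 ± 0.26, PLAC1 at 2.10 ± 0.90 and TFAP2A at -0.73 ± 0.33 in the authors' deposited table. PLAC1, at 3.57 in Ctrl, could enter only through its a6 level, so this count is not support. With compound 1, 38 were measured and 0 passed the DESeq2 test, also at an unadjusted p under 0.05.

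Genes reported to control or to bind PSGs were measured nearly in full. Of 17 listed regulators, among them the Sp and KLF factors, the retinoid receptors and HDAC1 to HDAC3, all were measured with each compound and 0 passed in each (DESeq2). At an unadjusted p under 0.05 the counts were 3 with SAHA, 0 with a6 and 0 with compound 1, where 18.4%, 7.41% and 0.199% of all genes were under it. Their median log2 fold change was -0.23 with SAHA, -0.11 with a6 and 0.08 with compound 1. The smallest p with SAHA belonged to the acetyltransferase gene CREBBP, at -0.87 ± 0.35, and to SP1, at -0.68 ± 0.31 in the authors' deposited table. Of 14 listed binding partners 13 were measured with SAHA, of which 2 rose and 0 fell, where 4.53% of all genes were called higher and 3.02% lower. They were SDC2, a heparan sulfate proteoglycan of the cell surface, at 336 with SAHA and 159 in Ctrl, and the integrin gene ITGB3, at 238 with SAHA and 116 in Ctrl. Their log2 fold changes were 1.07 ± 0.30 and 1.04 ± 0.35 in the authors' deposited table. TGFB1, whose product PSG1 and PSG9 activate, had 2517 with SAHA and 3572 in Ctrl, and its log2 fold change of -0.51 ± 0.31 in the authors' deposited table was not called. With a6, 0 of 12 measured partners passed the DESeq2 test. At an unadjusted p under 0.05 there were 2, where 7.41% of all genes were under it. They were TGFB2, at -0.71 ± 0.26, and SDC3, at -0.53 ± 0.25 in the authors' deposited table. With compound 1, 0 of 13 passed, also at an unadjusted p under 0.05.

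**Figure D5:**
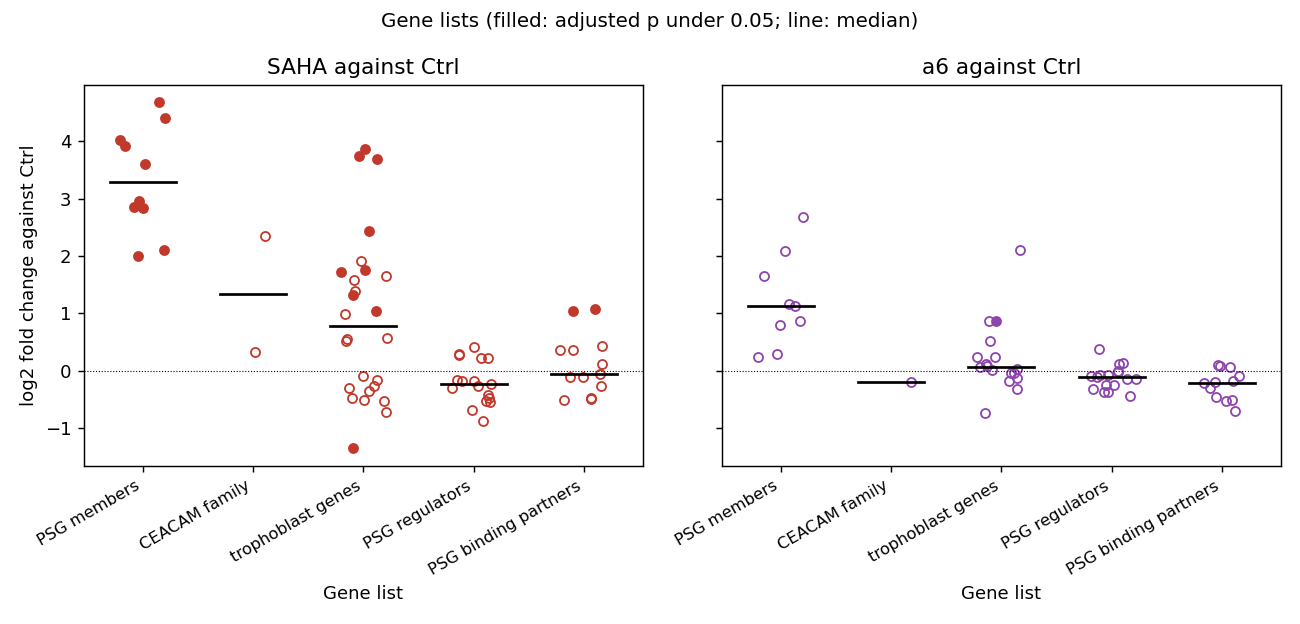
Log2 fold change against Ctrl of the PSGs and of 4 related gene lists with SAHA (left) and a6 (right); filled points have an adjusted p under 0.05 and lines are medians. The PSG medians are 3.28 and 1.14, those of the trophoblast genes 0.78 and 0.06. The SAHA values chose the family, and PSG2, PSG3 and PSG7 have an a6 value only through a higher a6 level. The medians are thus a description.

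The genes whose 3 log2 fold changes were most like the PSG median were NPPB, TNFSF15, CPA4, RGS4 and TMEM45A. Likeness is the Euclidean distance over 3 comparisons that share their Ctrl libraries. The candidates were 10514 genes whose mean count reached 50 in each table, without clone-type, LINC, antisense or small RNA names. The distance was 0.457 for NPPB, the B-type natriuretic peptide gene, with log2 fold changes of 2.87, 1.18 and -0.20 for SAHA, a6 and compound 1 in the authors' deposited table. The next 4 were at 0.624 to 0.846. Among the PSGs themselves PSG9 was nearest to the median at 0.363 and PSG2 farthest at 1.92. The PSGs were not held to the count of 50, and PSG9 had a mean count of 33.6 in the compound 1 comparison. None of the 5 most alike genes lies on chromosome 19.

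The authors also deposited lists of changed genes with a number of G4s. Of the PSGs, PSG4 and PSG8 were in the list for genes raised by SAHA, each with 1 G4. The share of all raised genes in that list was not worked out, so nothing is read from this count. The SAHA log2 fold changes of PSG4 and PSG8 were 2.11 and 2.00 in the authors' deposited table. Whether G4s go with the size of the change was not tested. Where in a gene the G4s were counted is not stated in the sources at hand.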

How the data were processed

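RNA of 4 groups of 3 MDA-MB-231 libraries had been compared by the authors, each compound with Ctrl. Per the submitters' processing notes cutadapt, DESeq2 and GRCh38 (hg38) were used; the sources used here name no aligner, counter, version or strand setting. Per the file headers, the deposited tables hold for each gene the mean of normalized counts (a signal), the log2 fold change and its error, the Wald score, and both the p-value and its adjusted form; the deposited G4 lists count G4s gene by gene. Columns of values per library numbered 0.

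Group means were worked out for groups of equal size from the deposited mean and fold. Intervals at 95% are 1.96 standard errors either side. Calls use the authors' adjusted p under 0.05 over the whole table. Compounds were compared by subtracting their log2 fold changes, adding the squared errors, and applying a z test (two-sided, Benjamini-Hochberg adjusted over all shared genes), which was tested on simulated data. Positions, exon lengths and transcripts came from GENCODE 29, with symbol matches of 95.8% for the SAHA table, 96.7% for a6 and 94.0% for compound 1; alignment used Biopython 1.88 and statistics scipy 1.17.1.

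The members and lists were chosen with earlier results of these data known. Named are all members, PSG pseudogene and antisense rows, up to 2 rising and 2 falling genes per list with the smallest adjusted p, near the block the nearest measured protein-coding gene on each side and every called gene, and the 5 most alike. Other trophoblast genes, TGFB1, TGFB2 and SDC3 were named after their values were seen. Alternatives were a stricter threshold, a 2-fold limit, a minimum mean count of 10, readjustment, centring, the authors' lists, an error correlation of 0.5 and, added after seeing the data, removal of a lowess trend on GC content (share 0.3).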

Additional observations from a re-analysis of the deposited data

How the results depend on the processing

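No paired analysis was possible because the tables hold no values per library; for the same reason no replicate could be left out. With SAHA 10 PSGs were called under each alternative tried, and with compound 1, 0. With a6 the authors' lists, which use an unadjusted p and a 2-fold limit, hold 5 PSGs against 0 at an adjusted p under 0.05. Among the 5 are PSG2, PSG3 and PSG7, which could enter only through their a6 level. The other alternatives gave 0. Between SAHA and a6 an error correlation of 0.5 called 8 PSGs against 2, and of all 15255 genes it called 1.98% higher against 0.197%. Between SAHA and compound 1 that correlation called 9 PSGs against 7, and a minimum mean count of 10 left 5. The shares over all genes under these 2 settings were not worked out. The minimum of 10 leaves out PSG2, PSG3, PSG7 and PSG11, with compound 1 mean counts of 3.27, 6.68, 7.66 and 2.18. Of these, PSG3 and PSG7 were among the 7. At an adjusted p under 0.01 the trophoblast genes that rose numbered 5 with SAHA against 8 and 0 with a6 against 1, and the binding partners that rose with SAHA 1 against 2; the stricter threshold sets this. All 58 recomputed member log2 fold changes kept their direction and their side of an adjusted p of 0.05. Removal of the GC trend gave 837 higher and 359 lower genes with SAHA, 70.0% higher against 60.0% as deposited, and 10 PSGs. Depth per library is unknown, and levels of a few counts, as for PSG11 and PSG2, carry the widest errors.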
